A study of Rattus norvegicus with 5 samples.

Results

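Cholesterol synthesis and cholesterol balance were followed through 32 rat genes in tumours of the C6-L line, a rat glioma line, grown in BALB/c nu/nu nude mice and measured on single-colour expression arrays. The genes were chosen by name from the pathway, with earlier results of these data known, and each was read by its brightest probe. Their counts and medians beside those of all features are therefore descriptions only. All 32 were measured among 18899 features tested (11091 of them named genes). They comprised 19 synthesis enzymes, 5 genes of SREBP control and sterol transfer, 5 genes of efflux and the liver X receptors, and 3 genes of lysosomal export and storage. Every one of the 32 probes was well above background on all 5 arrays.

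The samples were 3 metastatic lung nodules, 1 γ-irradiated primary tumour and 1 primary tumour that was not irradiated. All hosts were nude mice labelled as 6 weeks of age. The nodules and the irradiated primary were taken 6 weeks after γ-irradiation, and the non-irradiated primary 6 weeks after the xenograft, so that irradiation and the labelled time scale differ together between the primaries. The design text states that irradiated were set against non-irradiated primaries, and nodules against irradiated primaries. Each primary was 1 array, nothing in the labels ties the 3 nodules to 1 mouse or to several, and every p-value therefore measures only the spread between these nodules. Host cells of a nude mouse, which lacks mature T cells, remain in each piece of tissue and were read through rat probes. In such bulk samples fewer cells of a type and less RNA per cell cannot be told apart.

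Cells build cholesterol from acetyl-CoA through the mevalonate pathway, which yields farnesyl diphosphate, and then through squalene and lanosterol. When membrane sterol is low, the escort protein Scap carries the precursor of the transcription factor SREBP-2, the product of Srebf2, from the endoplasmic reticulum to the Golgi, where it is cleaved. The freed factor activates the genes of the pathway, commonly together with NF-Y and Sp1, while the Insig proteins hold the Scap complex back when sterol is plentiful. When oxysterols accumulate, the liver X receptors Nr1h2 and Nr1h3 activate the exporters Abca1 and Abcg1 and the ubiquitin ligase Mylip, which targets lipoprotein receptors for degradation. In brain tissue most cholesterol is made locally, since lipoproteins do not cross from the blood.

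The promoters of 4 members are shown. Hmgcs1, Idi1 and Srebf2 rose against the irradiated primary, whereas Mylip, the ligase under the liver X receptors, fell against the non-irradiated primary. RefSeq promoter windows (build GRCr8, 250 bases before to 50 after the annotated start) were found for 27 of the 32 genes, not for Pmvk, Fdft1, Sqle, Stard4 and Abcg1. Each is written 5′ to 3′ on the strand of its gene, and capitals mark the NF-Y box CCAAT and the Sp1 box GGGCGG on either strand. The windows lie at chr2:53382054-53382353 (Hmgcs1, plus strand), chr17:66547475-66547774 (Idi1, minus strand), chr7:115543057-115543356 (Srebf2, plus strand) and chr17:19514422-19514721 (Mylip, minus strand).
Hmgcs1: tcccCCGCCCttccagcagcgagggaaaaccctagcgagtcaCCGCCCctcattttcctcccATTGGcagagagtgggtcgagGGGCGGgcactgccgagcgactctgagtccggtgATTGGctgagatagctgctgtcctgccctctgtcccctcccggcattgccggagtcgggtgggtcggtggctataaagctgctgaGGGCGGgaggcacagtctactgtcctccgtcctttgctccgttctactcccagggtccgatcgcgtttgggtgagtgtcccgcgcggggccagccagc
Idi1: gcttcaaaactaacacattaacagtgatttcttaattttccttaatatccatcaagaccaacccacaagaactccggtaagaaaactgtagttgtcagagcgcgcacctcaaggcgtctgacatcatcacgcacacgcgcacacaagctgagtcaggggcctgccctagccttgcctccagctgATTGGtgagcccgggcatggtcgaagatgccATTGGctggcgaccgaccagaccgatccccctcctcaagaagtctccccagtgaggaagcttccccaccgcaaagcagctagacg
Srebf2: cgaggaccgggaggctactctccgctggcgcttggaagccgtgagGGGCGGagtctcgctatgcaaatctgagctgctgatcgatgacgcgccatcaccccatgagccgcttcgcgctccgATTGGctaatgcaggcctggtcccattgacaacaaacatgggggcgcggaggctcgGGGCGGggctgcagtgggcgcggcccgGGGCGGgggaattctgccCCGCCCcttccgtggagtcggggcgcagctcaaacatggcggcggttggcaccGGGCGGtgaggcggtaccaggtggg
Mylip: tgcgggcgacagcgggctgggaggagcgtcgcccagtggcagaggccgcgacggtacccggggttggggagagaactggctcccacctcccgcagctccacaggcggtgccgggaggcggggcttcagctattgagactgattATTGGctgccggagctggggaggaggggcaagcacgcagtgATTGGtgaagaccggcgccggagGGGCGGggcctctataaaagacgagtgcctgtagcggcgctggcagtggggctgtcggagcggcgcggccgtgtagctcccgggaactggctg

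Hmgcs1 held CCAAT matches 188 and 133 bases before the start, Idi1 66 and 35 bases before it, Srebf2 1 match 129 bases before it and Mylip 107 and 66 bases before it, all 7 of them read on the opposite strand (ATTGG). The box CCAAT was present in 13 of 16 promoters of synthesis enzymes (81.2%) and in 6 of 11 promoters of the other members (54.5%), against 37.8% of 9553 promoters of genes tested. Of the enzyme promoters 10 (62.5%) held at least 2 matches, against 13.5% of the tested genes, with 5 matches each in Mvk and Nsdhl. Acat2, Cyp51 and Dhcr7 were the enzyme genes without a match in this window. GGGCGG was present in 13 of 16 enzyme promoters (81.2%) and 58.7% of those of tested genes. Matches that abut can share letters. The stretch TCACNCCAC, a form of the sterol regulatory element, was in 0 of 27 member promoters and in 1.12% of those of tested genes. Of the printed promoters that of Idi1 held CCAAT without GGGCGG and the other 3 held both boxes, Mylip among them.

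Signal was well above background at 69.8 to 73.5% of gene spots per array with 0 spots saturated, and the number of arrays limits the precision. The 5 arrays lay on 1 slide, the nodules in one row and the primaries in the other, so that row and group cannot be told apart. Of 14 glial and glioma markers 11 were well above background on all 5 arrays, among them Vim, S100b, Sox2, Sox10 and Nes, while Gfap and Olig2 were so on 0 of 5. Their summed signal lay between 81.8 and 107.2 times the 75th percentile of the array. Their median level was -2.16, -0.92 and -1.87 (log2) in nodules 1, 2 and 3, -0.0024 in the irradiated and 1.77 in the non-irradiated primary, lower in the nodules than in either primary. Sox10, a glial lineage factor, stood at -4.09, -1.47 and -2.82 in the nodules, at -0.23 and at 2.10 in the primaries. Nes and Cd44 were also lower in every nodule than in either primary. Vim, Cspg4 and Slc1a3 were higher in every nodule than in either primary, so that the list did not move together. Levels below are log2 signal relative to the 75th percentile of the array's own probes, so that 0 is that percentile, and differences are log2 differences of such levels. Called means a Benjamini-Hochberg adjusted p under 0.05 over all features in limma. A fold compares 1 gene between samples, and levels of different probes are not compared.

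Of the 19 synthesis enzymes, 3 rose in the nodules against the irradiated primary, which is 1 array and also held the highest skeletal muscle marker sum (157.7, against 5.01 to 5.81 in the nodules). The median difference was 1.15 for the 19 synthesis enzymes and 0.92 for the 32 members, beside 0.03 for all features tested. By limma 4 of the 32 members rose, the enzymes Hmgcs1, Idi1 and Sqle and the regulator Srebf2, and 0 fell, while 3.73% of all features were called (0.91% rose and 2.81% fell). At an unadjusted p under 0.05 the counts were 17 higher (9.96% of features) and 2 lower (12.0% of features). All 3 nodules lay above the irradiated primary for 23 of the 32 members (36.2% of features) and for 18 of the 19 enzymes, Ggps1 being the exception, and below it for 4 members (31.8% of features), Insig2, Nr1h2, Nr1h3 and Soat1. The calls depended on single nodules. Those over all features moved in the same way, so that these swings are not particular to the members. Without nodule 1 limma called 19 members higher and 1 lower (Insig2), and 7.24% of features higher and 9.71% lower. Without nodule 2 and without nodule 3 it called 0 members, and 0 and 194 features (1.01%). Scaling each array to its median, quantile normalization and dropping the intensity trend of the variance each also left 0 members called (2.32%, 3.12% and 2.11% of features). The median difference of the members was 1.01, 0.95 and 0.92 under these settings, beside 0.13, 0.06 and 0.03 for all features.

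**Figure D1:**
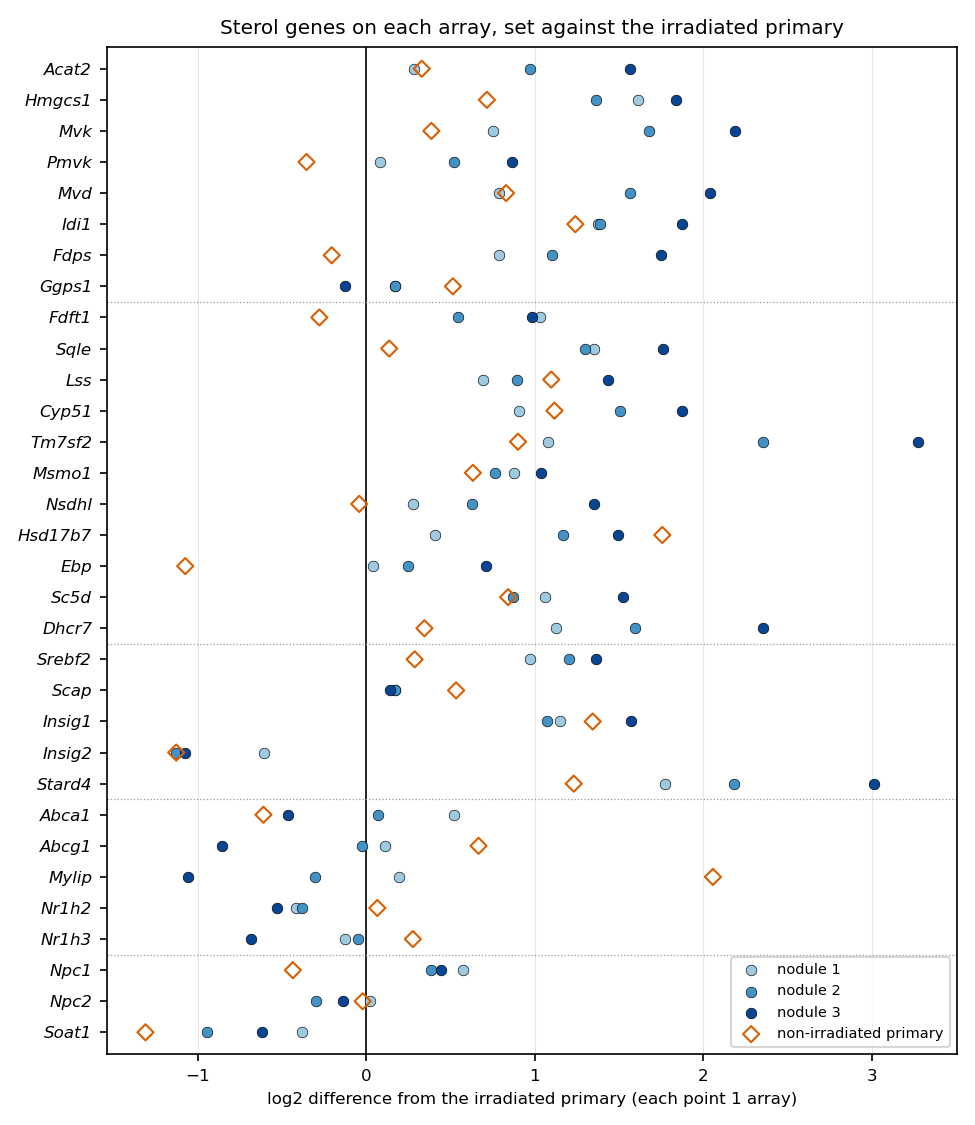
Each point is 1 array: the log2 level of a gene minus its level in the irradiated primary (vertical line at 0), with the 3 nodules as filled circles and the non-irradiated primary as open diamonds; dotted lines part the roles in the order named in the text. All 3 nodules lie to the right of 0 for 18 of the 19 synthesis enzymes, from Acat2 to Dhcr7, and nodule 3 is mostly the farthest right there.

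The early steps carry acetyl-CoA to farnesyl diphosphate. Hmgcs1, the cytosolic synthase that makes hydroxymethylglutaryl-CoA, stood at 4.13, 3.88 and 4.35 in nodules 1, 2 and 3, at 2.51 in the irradiated and at 3.23 in the non-irradiated primary. All 3 nodules were above both primaries. Its nodules exceeded the irradiated primary 3.04-fold (log2 difference 1.61, SE 0.21, limma adjusted p = 0.0351) and the non-irradiated primary 1.85-fold (0.89, SE 0.21, adjusted p = 0.0476). Idi1, the isomerase that interconverts the isopentenyl and dimethylallyl diphosphates, stood at 2.09, 2.10 and 2.59 in the nodules, at 0.72 in the irradiated and at 1.96 in the non-irradiated primary. Here the irradiated primary stood apart on the low side and the other 4 arrays lay close together. The nodules exceeded it 2.92-fold (1.54, SE 0.24, adjusted p = 0.0470), and against the non-irradiated primary the difference was 0.30 (SE 0.24, adjusted p = 0.411).

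Acat2, the thiolase of the first step, stood at 3.47, 4.16 and 4.75 in the nodules, at 3.18 in the irradiated and at 3.51 in the non-irradiated primary. Mevalonate kinase, Mvk, stood at -0.64, 0.29 and 0.80, at -1.39 and at -1.0 in the same order. Mvd, the decarboxylase that yields isopentenyl diphosphate, stood at 2.56, 3.33 and 3.81, at 1.77 and at 2.60. For Acat2 and Mvd nodule 1 lay at the level of the non-irradiated primary and nodules 2 and 3 above it, and Mvk was higher in every nodule than in either primary. Their differences from the irradiated primary, 0.94, 1.54 and 1.47, did not pass the test with all nodules (adjusted p = 0.343, 0.211 and 0.184), and neither did those from the non-irradiated primary (adjusted p from 0.212 to 0.420). Of the remaining early enzymes, Fdps, the farnesyl diphosphate synthase, differed by 1.21 from the irradiated and by 1.42 from the non-irradiated primary (adjusted p = 0.169 and 0.0658), and a second Fdps probe by 1.13 and 1.34. Pmvk, which adds the second phosphate to mevalonate, differed by 0.49 and 0.84. Ggps1, which draws farnesyl diphosphate away to geranylgeranyl diphosphate, differed by 0.07 and by -0.44.

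The steps from farnesyl diphosphate to cholesterol begin with squalene. Fdft1, squalene synthase, stood at 2.54, 2.05 and 2.49 in the nodules, at 1.51 in the irradiated and at 1.23 in the non-irradiated primary. Sqle, the squalene epoxidase, stood at 3.74, 3.69 and 4.16, at 2.40 and at 2.53. For both genes the 3 nodules lay above both primaries, and the primaries lay close together. Sqle exceeded the irradiated primary 2.77-fold (1.47, SE 0.22, limma adjusted p = 0.0447) and the non-irradiated primary 2.52-fold (1.33, SE 0.22, adjusted p = 0.0241). Fdft1 exceeded the non-irradiated primary 2.19-fold (1.13, SE 0.23, adjusted p = 0.0366), and its difference of 0.85 from the irradiated primary did not pass (adjusted p = 0.131).

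Lss, which folds the epoxide into lanosterol, stood at 0.38, 0.58 and 1.12 in the nodules, at -0.31 in the irradiated and at 0.78 in the non-irradiated primary. Cyp51, the lanosterol demethylase, stood at 2.13, 2.73 and 3.10, at 1.23 and at 2.34. In both the non-irradiated primary fell within the range of the nodules and the irradiated primary lay below it. Msmo1, a C4-methyl oxidase, stood at 5.62, 5.50 and 5.78, at 4.74 and at 5.37, with a difference from the irradiated primary of 0.89 (SE 0.15, adjusted p = 0.0539). Hsd17b7, a ketosteroid reductase of the same demethylation, stood at -1.32, -0.56 and -0.24, at -1.73 and at 0.03, so that the non-irradiated primary was the highest array. Nsdhl, the C4 decarboxylase, stood at -1.39, -1.04 and -0.32, at -1.67 and at -1.71, with the primaries nearly equal and every nodule above them.

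Tm7sf2, a sterol C14 reductase, stood at -0.85, 0.42 and 1.34 in the nodules, at -1.93 in the irradiated and at -1.03 in the non-irradiated primary. Dhcr7, the last reductase of one route to cholesterol, stood at 0.91, 1.38 and 2.14, at -0.22 and at 0.13. Both were higher in every nodule than in either primary, yet the spread of the nodules (SD 1.102 and 0.62) kept both from the threshold against the irradiated primary (2.24, SE 0.84, adjusted p = 0.218, and 1.69, SE 0.48, adjusted p = 0.141). Ebp, the sterol isomerase, stood at 2.81, 3.02 and 3.48, at 2.77 and at 1.70. Here the non-irradiated primary was the lowest array by a wide margin, and the nodules exceeded it 2.65-fold (1.41, SE 0.28, adjusted p = 0.0346) while differing by 0.33 from the irradiated primary (adjusted p = 0.547). Sc5d, the lathosterol desaturase, differed by 1.15 from the irradiated primary (adjusted p = 0.114) and by 0.31 from the other.

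Among the regulators, Srebf2 stood at 2.34, 2.57 and 2.73 in the nodules, at 1.37 in the irradiated and at 1.66 in the non-irradiated primary. Its nodules exceeded the irradiated primary 2.26-fold (1.18, SE 0.18, limma adjusted p = 0.0473) and the non-irradiated primary 1.85-fold (0.89, SE 0.18, adjusted p = 0.0373), with all 3 nodules above both. Scap, the escort of the same factor, differed by 0.16 from the irradiated and by -0.37 from the non-irradiated primary (adjusted p = 0.470 and 0.0812). The retention proteins did not run together. Insig1 stood at 1.56, 1.48 and 1.99 in the nodules, at 0.41 in the irradiated and at 1.76 in the non-irradiated primary. Insig2 stood at -2.24, -2.75 and -2.70, at -1.63 and at -2.76. The irradiated primary was thus the lowest array for Insig1 and the highest for Insig2, with the non-irradiated primary within or next to the nodules in both. The differences from the irradiated primary were 1.26 (SE 0.23, adjusted p = 0.0634) and -0.94 (SE 0.27, adjusted p = 0.150). Stard4, which carries cholesterol through the cytosol, stood at -0.73, -0.32 and 0.51, at -2.50 and at -1.27. Every nodule lay above both primaries, and the difference from the irradiated primary was 2.32 (SE 0.49, adjusted p = 0.0854), or 1.17 by a second probe.

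Of the 5 genes of efflux and the liver X receptors Mylip fell against the non-irradiated primary, and the other 4 passed in neither comparison. Mylip stood at -3.58, -4.08 and -4.83 in the nodules, at -3.78 in the irradiated and at -1.72 in the non-irradiated primary. The non-irradiated primary was far above the other 4 arrays, and the irradiated primary lay within the range of the nodules. Mylip was 5.44-fold lower in the nodules than in the non-irradiated primary (-2.44, SE 0.51, limma adjusted p = 0.0395) and differed by -0.39 from the irradiated one (adjusted p = 0.713). A second Mylip probe was well above background on 0 of 5 arrays. Nr1h2, the liver X receptor found in most tissues, stood at 1.92, 1.96 and 1.81 in the nodules, at 2.34 in the irradiated and at 2.41 in the non-irradiated primary. All nodules were below both primaries, by 0.44 (adjusted p = 0.136) and by 0.51 (adjusted p = 0.0516), neither past the threshold. Nr1h3, the other receptor, was also lower in each nodule than in both primaries (-0.29 and -0.56, adjusted p = 0.626 and 0.237). The exporters had differences of 0.04 (Abca1) and -0.26 (Abcg1) from the irradiated and of 0.65 and -0.92 from the non-irradiated primary, with adjusted p from 0.178 to 0.965. The median over the 5 genes was -0.29 and -0.56.

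In the lysosome, Npc1 and Npc2 pass cholesterol out of the organelle together. Npc1 stood at 1.28, 1.09 and 1.15 in the nodules, at 0.71 in the irradiated and at 0.27 in the non-irradiated primary. Each nodule was above both primaries, by 0.47 (SE 0.14, limma adjusted p = 0.150) and by 0.90 (SE 0.14, adjusted p = 0.0211), and a second probe gave 0.31 and 0.84. Npc2 stood at 2.11, 1.78 and 1.94, at 2.08 and at 2.06, and the primaries lay within the range of the nodules. Soat1, which esterifies cholesterol for storage, stood at -2.76, -3.33 and -3.00, at -2.39 and at -3.70, so that the nodules lay between the primaries.

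**Figure D2:**
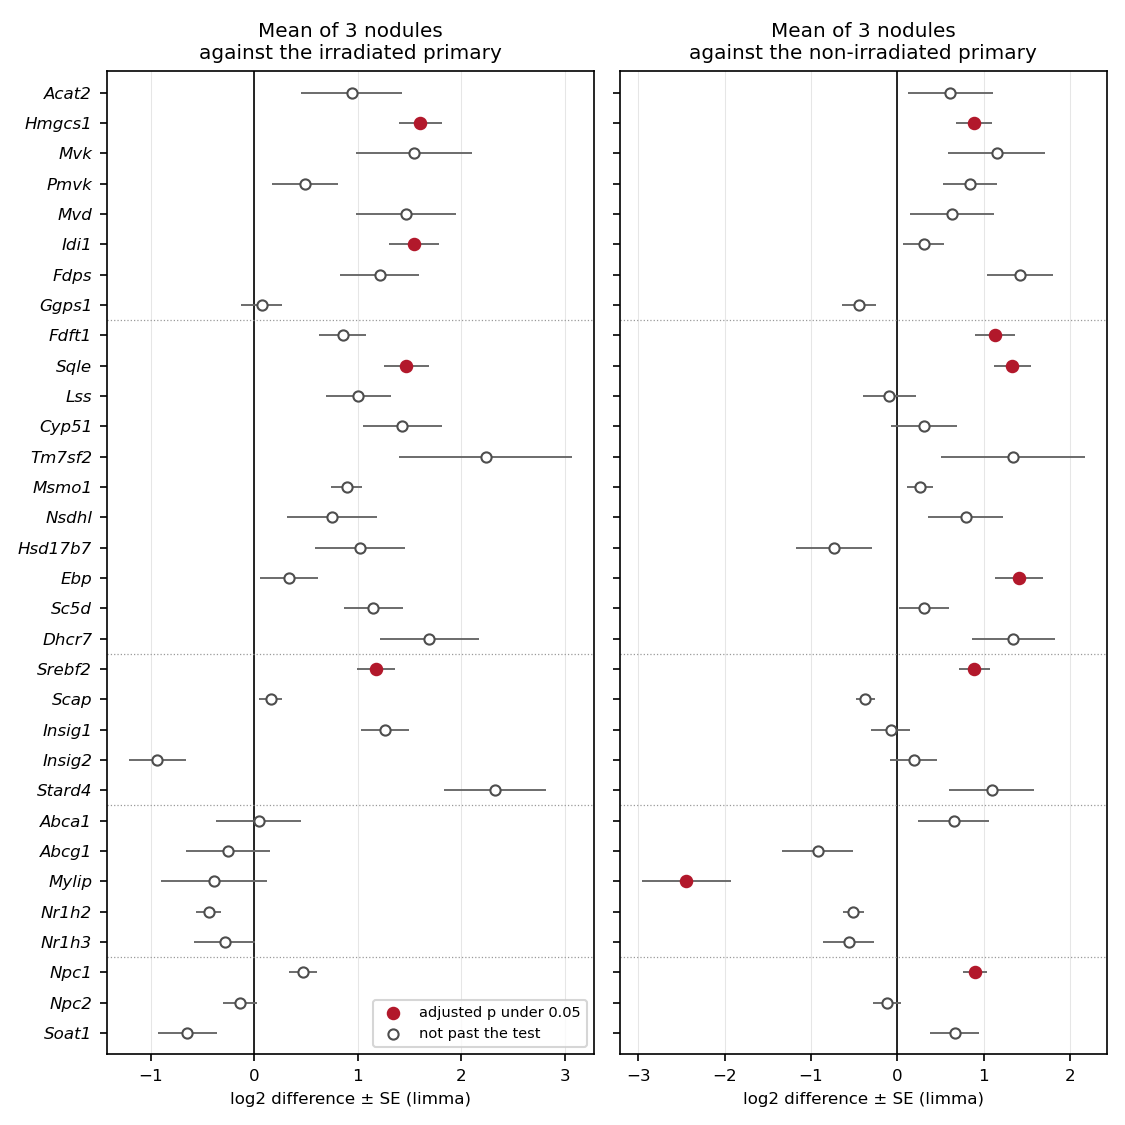
Log2 difference of the mean of 3 nodules from the irradiated primary (left) and from the non-irradiated primary (right), with the limma standard error as bars; filled red points have an adjusted p under 0.05, open points do not, and the horizontal scales of the panels differ. The 4 red points on the left are Hmgcs1, Idi1, Sqle and Srebf2, and Mylip at -2.44 is the red point left of 0 on the right.

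Against the non-irradiated primary the median difference was 0.62 for the members and 0.79 for the synthesis enzymes, beside 0.04 for all features. By limma 6 members rose, namely Hmgcs1, Fdft1, Sqle, Ebp, Srebf2 and Npc1 (9.74% of features rose), and Mylip fell (8.84% of features fell, 18.6% being called either way). At an unadjusted p under 0.05 there were 9 higher (18.9% of features) and 3 lower (18.0% of features). All 3 nodules lay above this primary for 19 of 32 members (40.1% of features) and below it for 7 (36.8% of features). They lay above both primaries for 16 members (22.3% of features), 13 of them enzymes, and below both for 2 (19.2% of features), Nr1h2 and Nr1h3. The comparisons share the nodules, and their values stand side by side only. Without nodule 1 limma called 16 members higher and 3 lower, and 17.8% of features higher and 16.2% lower. Without nodule 2 or nodule 3 it called 0 members, and 0 and 345 features (1.8%). Median scaling left Fdft1, Sqle, Npc1 and Mylip called (13.7% of features), and a fit with no intensity trend left Sqle and Npc1 (13.2% of features). The median of the members was 0.32 without nodule 3. With no filter on dim probes, or with no intensity trend, Mylip lost its call (adjusted p = 0.0539 and 0.0584; 0.0190 to 0.0584 over the settings that keep all nodules). The call of Hmgcs1 held in 2 of those 8 settings, with adjusted p from 0.0425 to 0.0833.

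The primaries were 1 array each, so their differences carry no test. In the irradiated primary 22 of the 32 members were lower than in the non-irradiated one (48.6% of features), and 14 of the 19 enzymes, with medians of -0.37 for the members, -0.51 for the enzymes and 0.02 for all features. At least 2-fold differences were seen for 10 members (16.4% of features). Lower in the irradiated primary were Idi1 (2.36-fold), Lss (2.14-fold), Cyp51 (2.17-fold), Hsd17b7 (3.38-fold), Insig1 (2.54-fold), Stard4 (2.35-fold) and Mylip (4.16-fold), that is 7 members (7.12% of features). Higher were Ebp (2.11-fold), Insig2 (2.19-fold) and Soat1 (2.48-fold), 3 members (9.3% of features). The lower ones were thus 4 enzymes of synthesis, a retention protein, the sterol carrier and the ligase, and the higher ones a sterol isomerase, the other retention protein and the esterifying enzyme. Sqle, a member that rose in the nodules, differed 1.099-fold between the primaries.

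The nodules differed among themselves in these genes. The median SD over the 3 nodules was 0.35 for the members and 0.16 for all features, and the range reached 1 on the log2 scale for 9 of 32 members (9.22% of features). Nodule 3 was the highest nodule for 17 of 19 synthesis enzymes, Ggps1 and Fdft1 being the exceptions, and for 20 of 32 members (26.1% of features). It was the lowest for all 5 genes of efflux and the liver X receptors and for 7 members in all (42.5% of features). Scaling each array to its median gave 18 of 19 enzymes and 4 of 5 genes of efflux and the liver X receptors, with 46.2% of features highest and 23.8% lowest in nodule 3. Against nodule 1, nodule 3 was at least 2-fold higher for 8 members (2.87% of features), Acat2, Mvk, Mvd, Tm7sf2, Nsdhl, Hsd17b7, Dhcr7 and Stard4, and at least 2-fold lower for Mylip (4.14% of features). Against nodule 2 it was so for 0 members in either direction (0.728% and 1.52% of features). Nodule 2 was at least 2-fold above nodule 1 for Tm7sf2 alone among the members (2.69% of features). The median difference of the members from the irradiated primary was 0.63 in nodule 1, 0.82 in nodule 2 and 1.36 in nodule 3. Each nodule is 1 array, and these differences have no replicate check.

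**Figure D3:**
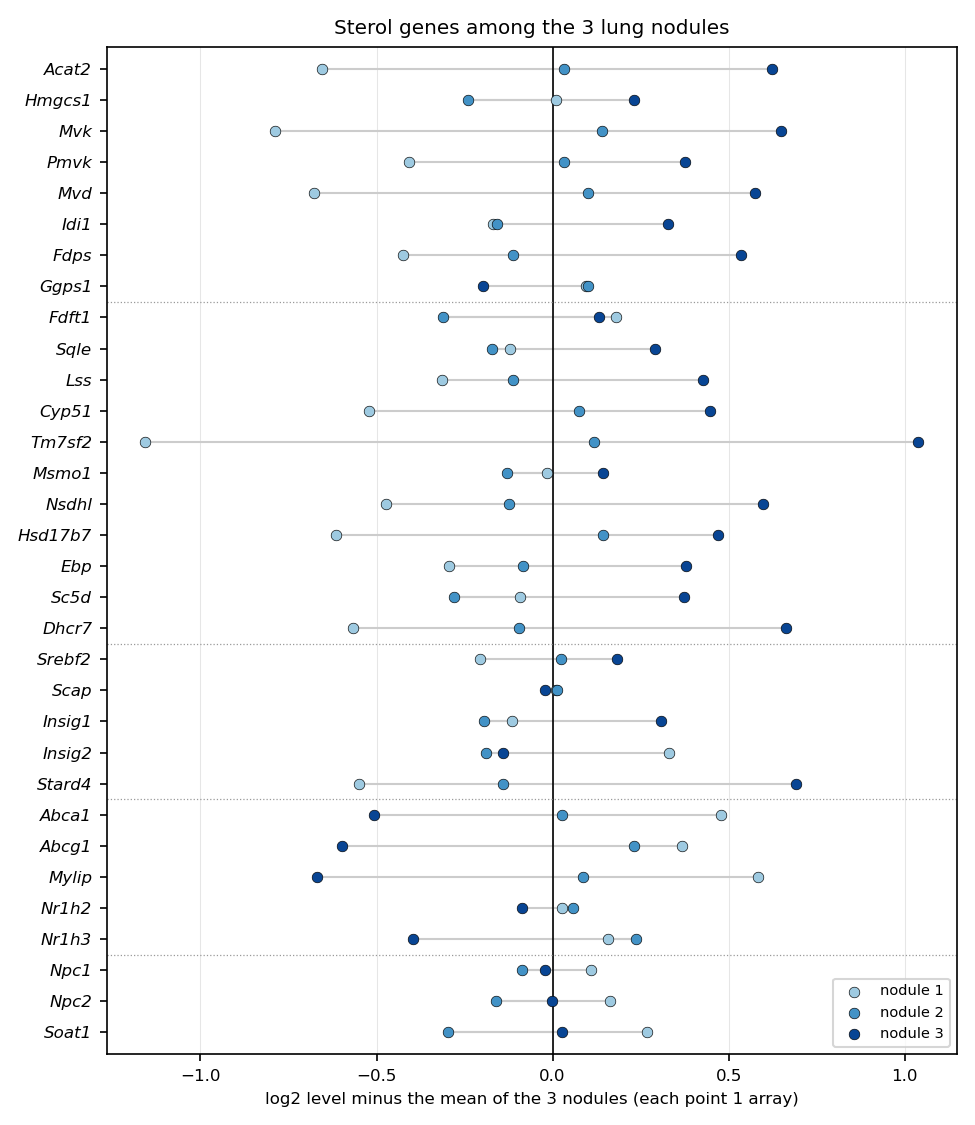
Each point is 1 nodule: its log2 level of a gene minus the mean of the 3 nodules, with a grey bar over their range and dotted lines between the roles. Nodule 3 (dark) lies to the right for 17 of the 19 synthesis enzymes in the upper part and is the lowest point for Abca1, Abcg1, Mylip, Nr1h2 and Nr1h3.

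Markers of other cell types moved with several of these contrasts. The summed signal of 7 measured alveolar type 2 markers, in units of the 75th percentile of the array, was 49.3, 10.7 and 0.248 in nodules 1, 2 and 3, and 0.379 and 1.32 in the irradiated and non-irradiated primary, with 6, 6, 3, 2 and 2 markers well above background. Of these Sftpb, a surfactant protein, Sftpa1 and Slc34a2 were well above background in nodules 1 and 2 and in no other sample. The list did not move together. Sftpc stood at -1.04, -3.65 and -3.62 in the nodules, at -2.88 in the irradiated and at -1.89 in the non-irradiated primary. Napsa was lower in nodule 2 (-0.08) than in the non-irradiated primary (0.03). The 6 airway markers summed to 19.2, 10.3, 0.235, 0.219 and 0.354 in the same order. Both sums were highest in nodule 1. Nodule 1 was the lowest nodule for 13 of the 19 synthesis enzymes and for 32.2% of all features. The 8 cardiac muscle markers summed to 51.4 in nodule 3 and to 3.24 to 6.85 on the other arrays, which include the other nodules and both primaries. The 11 skeletal muscle markers summed to 157.7 in the irradiated primary, 35.9 in the non-irradiated primary and 5.01 to 5.81 in the nodules, a list in which Acta1 and Ckm were high in both primaries. The 6 skin and sebaceous markers did not move together: Krt79 was at 3.21 in the irradiated primary and at -0.30 to 0.28 elsewhere, while Krt5 and Dmkn were lower there than in nodules 1 and 2.

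The 5 erythroid markers summed to 563, 478 and 313 in the nodules, 106 in the irradiated and 39.0 in the non-irradiated primary. The 13 macrophage markers, of a cell type that expresses Abca1, Abcg1 and Nr1h3, summed to 49.1, 47.9 and 43.5 in the nodules, 53.1 in the irradiated and 24.9 in the non-irradiated primary, a sum carried by C1qa and C1qb. Their median level was -2.78, -2.89 and -2.78 in the nodules, -2.36 in the irradiated and -2.26 in the non-irradiated primary. The list did not move together: Cd68, Cd163, Mrc1 and Cd14 were higher in the non-irradiated primary than in every nodule. All its other markers, Csf1r, Adgre1, C1qa and C1qb among them, were lower there than in every nodule. The 7 adipocyte markers summed to 0.074, 0.104 and 0.302 in nodules 1, 2 and 3, 0.1255 in the irradiated and 0.0489 in the non-irradiated primary. In that order 1, 2, 3, 2 and 0 of them were well above background, and Adipoq was so on 0 of 5 arrays. The part of any of these cell types in the differences of the sterol genes was not tested.

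**Figure D4:**
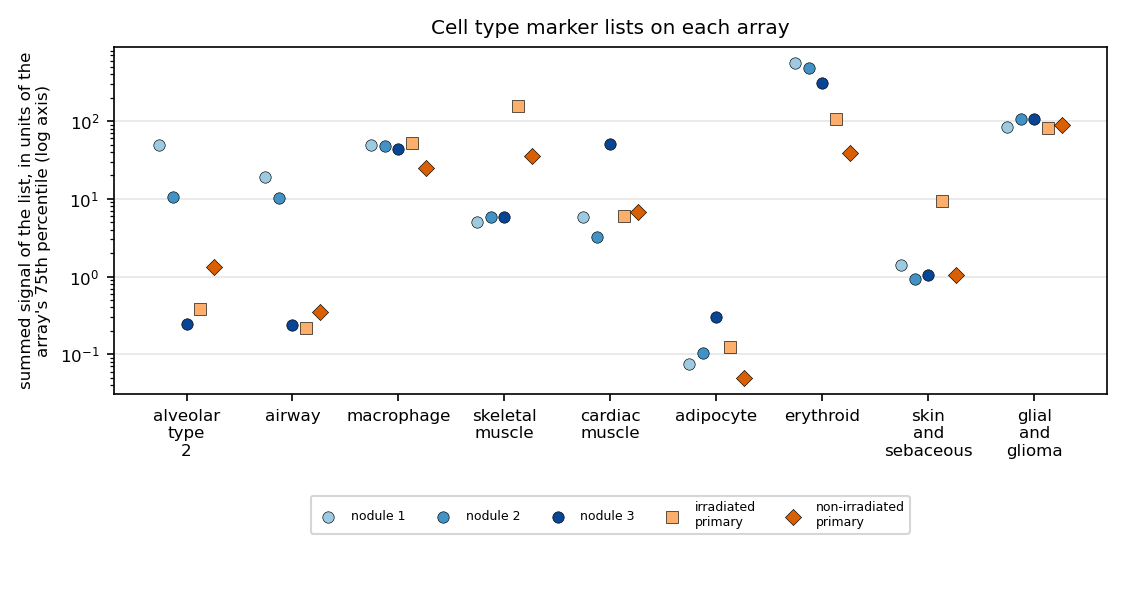
Summed signal of each marker list on each of the 5 arrays, in units of the 75th percentile of the array, on a log axis; circles are nodules 1 to 3 and the square and diamond are the irradiated and the non-irradiated primary. The alveolar and airway sums part nodules 1 and 2 from nodule 3, the cardiac sum stands out in nodule 3, and the skeletal muscle sum is highest in the irradiated primary at 157.7.

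Other genes around the pathway were read from lists written down with the members. Of 38 genes of sterol handling and control 34 were measured. Against the irradiated primary limma called 0 of them, with 5 higher and 1 lower at an unadjusted p under 0.05 (9.96% and 12.0% of features) and a median difference of 0.26. Against the non-irradiated primary 3 rose and 2 fell, with a median of 0.22, while 9.74% of features rose and 8.84% fell, so that these calls were no more frequent than over all features. Erg28, a scaffold of the sterol C4 demethylation enzymes, stood at -0.38, -0.32 and 0.25 in the nodules, at -0.95 in the irradiated and at -1.61 in the non-irradiated primary, and rose by 1.46 against the latter (SE 0.29, adjusted p = 0.0358). Cyp27a1, the sterol 27-hydroxylase, rose by 1.56 (SE 0.35, adjusted p = 0.0438), and Erlin1, which takes part in the turnover of Insig proteins, by 0.70 (SE 0.13, adjusted p = 0.0304). Nceh1, a cholesterol ester hydrolase, fell by 1.71 (SE 0.25, adjusted p = 0.0192), and Osbpl1a, an oxysterol-binding protein, fell by 1.04 (SE 0.18, adjusted p = 0.0283). Without nodule 2 or without nodule 3 none of these 5 was called (adjusted p from 0.0593 to 0.127), and the mean of all its probes put Nceh1 at -1.11 (adjusted p = 0.0678; 0.0157 to 0.0678 over the settings). For uptake, the high-density lipoprotein receptor Scarb1 stood at 0.95, 1.51 and 1.93 in the nodules, at 0.47 in the irradiated and at 0.90 in the non-irradiated primary, and its differences of 0.99 and 0.56 did not pass (adjusted p = 0.233 and 0.350). It was lowest in nodule 1 and highest in nodule 3, like most enzymes. The lipoprotein receptors Vldlr and Lrp1 were instead highest in nodule 1. Vldlr stood at -3.83, -5.60 and -4.80 in the nodules, at -2.77 in the irradiated and at -5.91 in the non-irradiated primary. Its probe was well above background on 4 of 5 arrays. The value of -5.91 lay near the lowest level called well above background on that array (-6.12). Lrp1 stood at 2.44, 1.86 and 1.96, at 1.48 and at 1.69 in the same order.

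The isoprenoid branch uses farnesyl and geranylgeranyl diphosphate for prenylation, dolichol and ubiquinone. Of 10 listed genes 9 were measured, with a median difference of 0.06 from the irradiated and 0.32 from the non-irradiated primary. Against the former 1 fell (2.81% of features) and 0 rose, and against the latter 2 rose (9.74%) and 1 fell (8.84%). Nus1, a subunit of the prenyltransferase that makes dolichol, stood at 1.27, 1.06 and 1.00 in the nodules, at 3.96 in the irradiated and at 2.78 in the non-irradiated primary. It fell by 2.85 against the irradiated primary (SE 0.15, limma adjusted p = 0.00713) and fell by 1.67 against the non-irradiated one (SE 0.15, adjusted p = 0.0121), with the 3 nodules below both. With the mean of all its probes the differences were -1.46 and -1.12, both still called. Its partner Dhdds stood at 0.61, 0.91 and 0.92, at 0.73 and at -0.36, and rose by 1.17 against the non-irradiated primary (SE 0.18, adjusted p = 0.0213). The subunits of 1 enzyme thus had differences of opposite sign in that comparison, and against the irradiated primary Dhdds differed by 0.09. Coq2, of ubiquinone synthesis, rose by 0.63 against the non-irradiated primary (SE 0.14, adjusted p = 0.0465). That call was lost in 6 of 8 settings (adjusted p from 0.0447 to 0.0943) and without nodule 2 or nodule 3 (0.166 and 0.129). Dhdds was not called without nodule 2 or nodule 3 (adjusted p = 0.0861 and 0.0719, against 0.0188 to 0.0440 over the settings that keep all nodules). Without nodule 2 limma called neither Nus1 difference (adjusted p = 0.0576 and 0.0631, against 0.00463 to 0.0253 and 0.0108 to 0.0243 over the settings that keep all nodules).

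Of 13 fatty acid genes known as SREBP targets or partners 12 were measured, with median differences from the irradiated and the non-irradiated primary of 0.81 and 0.63, beside 0.03 and 0.04 for all features. Nodule 3 was the highest nodule for 10 of the 12 (26.1% of features). By limma 1 rose against the irradiated primary (0.91% of features) and 2 against the non-irradiated one (9.74% of features), and 0 fell. Scd, the stearoyl-CoA desaturase, stood at 2.48, 2.23 and 2.79 in the nodules, at -0.59 in the irradiated and at 0.18 in the non-irradiated primary. It rose against both by limma (adjusted p = 0.0128 and 0.0130), by 3.09 and 2.32, and passed against neither without nodule 2 (adjusted p = 0.0543 and 0.0573; 0.0111 to 0.0279 and 0.0116 to 0.0256 over the settings that keep all nodules). Fads2, the delta-6 desaturase, stood at 0.17, 0.07 and 0.26, at -0.44 and at -0.57, and rose by 0.74 against the non-irradiated primary (SE 0.15, adjusted p = 0.0339). The Fads2 call was lost with median scaling and with no intensity trend (adjusted p from 0.0324 to 0.0686 over the settings that keep all nodules), and without nodule 2 or nodule 3 (0.107 and 0.101). The other 10 measured genes did not pass in either comparison, Elovl6, a fatty acid elongase, differing by 1.60 and 1.72 (adjusted p = 0.155 and 0.0705).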

How the data were processed

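RNA of 3 lung nodules and 2 primary tumours was hybridised to single-colour (Cy3) Agilent rat arrays, 1 array per sample. Agilent Feature Extraction 11.0 made the deposited intensity values, which are background-corrected spot signals per the file headers. Other deposited columns are flags of 0 or 1 per the file headers, for outlier spots, saturation and signal well above background. The authors also deposited a log2 matrix of 18502 probes, whose making is not given in the sources used here. It correlated at 0.9996 to 0.9999 with the scanner values and served as an alternative.

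Outlier spots were left out (0.603 to 0.865% of gene spots), log2 signals of a probe's spots were averaged, and the 75th percentile of each array was subtracted. Of 30367 probes 18354 were named through their RefSeq accession. A probe entered the test when some group had it well above background at every usable spot of each array, and a gene was read by its brightest probe. limma 3.58.1 in R 4.3.3 fitted 3 group means with an intensity trend, with 2 residual degrees of freedom from the nodules, whose spread each primary was assumed to share. It was tested on simulated data in which the primaries were given the spread of the nodules, so that this test cannot check that assumption. The probes were designed on an earlier build than GRCr8, so promoters were matched by symbol.

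The members and lists were chosen with earlier results of these data known. Members are given on every array when called, at least 2-fold apart between the primaries, ranging over at least 1 (log2) among the nodules, or brightest in their role, and the others more briefly. Listed genes outside the members are named when called, and Scarb1, Vldlr, Lrp1, Elovl6 and the markers were picked after their values were seen. A few genes of the pathway are not reported here. The planned normexp correction used median spot signals, the only raw foreground column found in the files.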

Additional observations from a re-analysis of the deposited data

How the results depend on the processing

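Other settings were median scaling of each array, quantile normalization, normexp with quantile normalization, no filter on dim probes, probes well above background on all 5 arrays, no intensity trend, the mean of a gene's probes, the deposited matrix and leaving out each nodule. No called difference of a member changed sign in any of them. Members higher than in the irradiated primary, 4 in the report, numbered 0 with median scaling, 0 with quantile normalization and 0 with no intensity trend. They numbered 1 with no filter, 2 in the deposited matrix, and from 0 to 19 when a nodule was left out. The features called over the whole array then went from 0 (without nodule 2) to 3230 (16.9%, without nodule 1). Members lower numbered 0 to 1 without a nodule. Against the non-irradiated primary, members higher, 6 in the report, numbered 3 with median scaling, 2 with no intensity trend and 0 to 16 without a nodule (0 to 6468 features, up to 33.9%). Members lower, 1 in the report, numbered 2 with quantile normalization, normexp, the filter on all 5 arrays and the deposited matrix, each adding Nr1h2. They numbered 0 with no filter, 0 with no intensity trend, and 0 to 3 without a nodule. The median difference of the members from the non-irradiated primary ran from 0.32 to 0.59 without a nodule, and from the irradiated primary from 0.79 to 1.08. The number at least 2-fold apart between the primaries was 8 to 10. A fit without a nodule has fewer samples, and calls rose without nodule 1 and fell without nodule 2 or nodule 3. The cause of these changes was not tested. Sqle and Npc1 kept their calls against the non-irradiated primary in all 8 settings that keep the nodules, and Idi1 and Srebf2 each kept theirs against the irradiated primary in 3 of 8, with adjusted p from 0.0431 to 0.0901 and from 0.0381 to 0.0949. No paired analysis was possible because each primary is 1 array. All members were well above background.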
